A study of Mus musculus and Rattus norvegicus with 60 samples.

Results

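The hypertrophic zone (HZ) was compared with the proliferative zone (PZ) in the growth plate of the proximal tibia of the mouse at 1 week of age. The data are the 10 RNA-seq libraries labelled 1-week tibia HZ (replicates 1 to 5) and 1-week tibia PZ (replicates 1 to 5), out of 59 mouse and rat libraries analysed from 60 samples listed. The mice were wild-type C57BL/6, male per the study's methods, and neither zone carried a transgene or a treatment. Each library came from the RNA of a zone that had been cut from growth plate sections by laser capture microdissection. The mouse libraries used for comparison were the HZ and PZ of the proximal tibia at 4 weeks (5 libraries each) and of the forelimb phalanx, also proximal, at 1 week (5 HZ and 4 PZ libraries), and the rat libraries were the HZ and PZ of the 1-week proximal tibia of Sprague-Dawley rats (5 each). Whether an HZ and a PZ library with the same number came from the same mouse is not given in the sources used here.

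The growth plate is the layer of cartilage at the end of a long bone that makes the bone longer. In its proliferative zone, flat chondrocytes divide in columns and secrete a matrix of type II collagen and aggrecan. In the hypertrophic zone below, the same cells stop dividing, swell, change their matrix to type X collagen, mineralize it and are then replaced by bone, as vessels, osteoclasts and osteoblasts enter from the metaphysis. Indian hedgehog, parathyroid hormone-related protein (PTHrP), Bmps, Wnts, Fgfs and Igfs pass signals between these layers.

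A value below is a normalized count, meaning the read count of a gene in a library after the authors' scaling for depth. The zone difference of a gene is log2 of HZ minus log2 of PZ, on the scale log2(normalized count + 1), with its standard error (SE) from limma, fitted over all 6 mouse groups, with p-values adjusted by the Benjamini-Hochberg method over 15212 genes tested. On that scale the change of a gene with few reads depends on the added 1. It can differ from the ratio of its reads in either direction. The captured zones hold many cells, and fewer cells of a type cannot be told apart from less RNA per cell. Library totals were 24968350 to 30371805 reads in HZ and 24056007 to 29625595 in PZ, but a large part of them fell on Rn45s, the 45S pre-ribosomal RNA. Rn45s held 79.0, 75.3, 77.9, 80.8 and 65.8% of the reads in HZ replicates 1 to 5 and 60.2, 56.2, 57.9, 58.6 and 44.7% in PZ replicates 1 to 5. All 5 HZ libraries were above all 5 PZ libraries, with a difference of means of 20.2 percentage points (75.8 ± 5.94 in HZ and 55.5 ± 6.20 in PZ, SD, n = 5, two-sided exact permutation test, p = 0.00794, the smallest that 5 against 5 libraries allow). Outside Rn45s, 5240960 to 10397185 reads were left in HZ and 9958099 to 15190828 in PZ, so that 1 read was worth 1.30 to 2.67 normalized counts in HZ and 0.748 to 1.11 in PZ, and low values are less certain in HZ. Rn45s took no part in the counts of genes below. Lars2, a mitochondrial leucyl-tRNA synthetase that was looked at after its values were seen, was the other gene of this kind, with 984000, 717800, 749200, 810900 and 453900 in PZ and 3018000, 2374000, 2345000, 3081000 and 1608000 in HZ, and it stood at 4.78 to 6.28 reads per 100 Rn45s reads in all 10 libraries. Whether reads of ribosomal RNA were counted at Lars2 was not tested.

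The 5 PZ libraries were more alike than the 5 HZ libraries. Spearman correlations across genes, given as a description, ran from 0.958 to 0.972 between PZ libraries and from 0.859 to 0.900 between HZ libraries, and HZ replicate 1 had the lowest mean, 0.867. The HZ libraries had fewer reads outside Rn45s, 5240960 to 10397185 against 9958099 to 15190828 in PZ, and HZ replicate 1 had the fewest. The part of depth in these correlations was not tested. HZ replicate 1 also held the most RNA of blood-forming cells, as the values on marrow genes show near the end. PZ replicates 3, 4 and 5 held more bone and osteoclast RNA than PZ replicates 1 and 2.

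The zone labels were checked against the marker genes. Gdf10, a Bmp family ligand used as a PZ marker, counted 3853, 3508, 3398, 2516 and 3883 in PZ and 37.3, 201, 262, 33.1 and 59.9 in HZ. Prelp, a small leucine-rich proteoglycan of cartilage, counted 85100, 79660, 80750, 67110 and 77780 in PZ and 3597, 602, 5297, 1828 and 1356 in HZ. For both genes the lowest PZ library was far above the highest HZ library, with a zone difference of -5.33 ± 0.56 for Gdf10 (adjusted p = 3e-08) and -5.32 ± 0.76 for Prelp (adjusted p = 4.5e-06). Bmp7, the remaining PZ marker of this kind, counted 848, 818, 1159, 1525 and 658 in PZ and 21.3, 63.0, 299, 222 and 129 in HZ, which also do not overlap (-3.20 ± 0.53, adjusted p = 1.8e-05). Col10a1, which encodes the type X collagen that defines hypertrophic cartilage, counted 2243, 6228, 1943, 2252 and 5251 in PZ and 147600, 149600, 131400, 112500 and 416300 in HZ. No HZ library was under 112500 and no PZ library over 6228, and HZ replicate 5 stood well above the other 4 (5.73 ± 0.52, adjusted p = 4.7e-09). Mmp13, the collagenase of the lower hypertrophic zone, counted 279, 1046, 611, 3670 and 4121 in PZ and 15530, 78070, 33430, 66480 and 34390 in HZ. Its HZ values were spread, lowest in replicate 1 and highest in replicate 2, but did not reach down to those of PZ (5.01 ± 0.64, adjusted p = 1e-06). Bmp2 counted 47.5, 79.4, 98.7, 119.5 and 52.3 in PZ and 1259, 1362, 1151, 968 and 1069 in HZ, the tightest HZ group of the 3 HZ markers (3.93 ± 0.36, adjusted p = 1.3e-10).

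Other genes often used to mark the zones followed the labels less sharply. Ihh, the Indian hedgehog ligand of prehypertrophic and early hypertrophic chondrocytes, rose from 739 ± 282 (SD) in PZ to 3185 ± 632 in HZ (2.15 ± 0.34, adjusted p = 9.2e-06). Col2a1, the gene of type II collagen, counted 1450000, 1608000, 1403000, 1273000 and 1454000 in PZ and 978300, 619200, 939100, 580100 and 1254000 in HZ. No HZ library reached a PZ library, yet the difference did not pass the test (-0.77 ± 0.38, adjusted p = 0.1), and it passed when the 10 libraries were fitted alone or after quantile normalization (adjusted p = 0.0053 and 0.00096). Acan, which encodes aggrecan, overlapped between the zones, with 155300, 172000, 142800, 126600 and 151700 in PZ and 161200, 137100, 148500, 103600 and 225200 in HZ (0.01 ± 0.33, adjusted p = 0.98). Mki67, a gene of dividing cells, did not pass the test (-0.51 ± 0.28, adjusted p = 0.14), with 11730, 8417, 11320, 10700 and 11880 in PZ and 17930, 5435, 5352, 5286 and 8688 in HZ. HZ replicate 1 held the highest Mki67 value of all 10 libraries while the other 4 HZ libraries lay between 5286 and 8688, and without HZ replicate 1 the gene was called lower in HZ (-0.83, adjusted p = 0.0039). Top2a, a topoisomerase of S and G2 phase, fell in HZ (-0.74 ± 0.17, adjusted p = 0.00061), though HZ replicate 1 lay above PZ replicate 2.

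**Figure D1:**
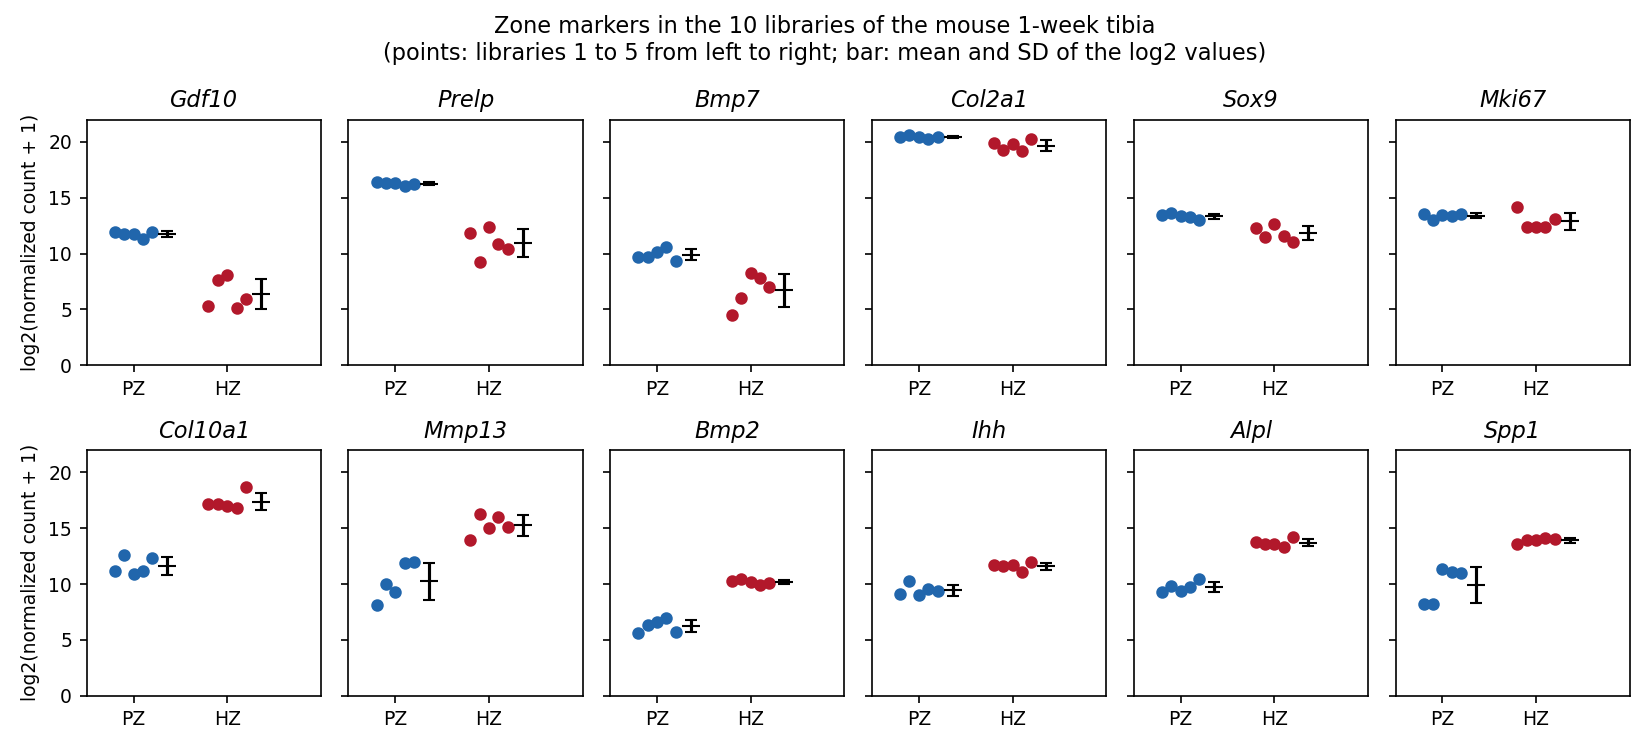
Level of 12 zone marker genes, as log2(normalized count + 1), in the 5 PZ and 5 HZ libraries of the mouse 1-week tibia (points, libraries 1 to 5 from left to right), with the mean and SD of the log2 values beside them. Gdf10, Prelp and Bmp7 are higher in all PZ libraries, Col10a1, Mmp13, Bmp2, Ihh, Alpl and Spp1 in all HZ libraries, and Mki67 overlaps through HZ replicate 1.

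In all, 2229 genes were higher and 2659 lower in HZ by more than 2-fold at an adjusted p under 0.05, which is 14.7% and 17.5% of the genes tested. Without a minimum fold, the counts were 3109 higher (20.4%) and 3610 lower (23.7%). The median zone difference over all genes tested was -0.15, and the gene groups below are read beside these numbers.

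Among genes whose 10 values did not overlap and whose mean in the higher zone was at least 500, the 15 highest differences in HZ were led by Npr3, the clearance receptor for natriuretic peptides. Npr3 counted 0, 0, 4.57, 0 and 5.98 in PZ and 928, 1278, 1093, 838 and 1581 in HZ. It had 13 reads in all PZ libraries together and 3043 in HZ, so the HZ level was 501 times the PZ level (95% counting interval 292 to 941, exact, counting error only), and the fitted zone difference was 9.07 ± 0.68 (adjusted p = 9.3e-13). AI661453, a gene model without a described role, counted 4.32, 0, 0, 13.3 and 5.98 in PZ and 1640, 1604, 1098, 921 and 1724 in HZ. Itga7, an integrin alpha chain that binds laminin, counted 4.32, 8.12, 21.9, 13.3 and 10.5 in PZ and 3205, 3321, 2295, 2898 and 2883 in HZ. These 3 genes stood at 0 to 21.9 in the PZ libraries and at 838.5 to 3321 in the HZ libraries. Pde11a, a phosphodiesterase that breaks down cAMP and cGMP, counted 22.7, 6.31, 7.31, 14.4 and 5.98 in PZ and 2779, 2128, 1465, 1502 and 1948 in HZ (7.45 ± 0.38, adjusted p = 1.1e-16). Aldh1a3, an enzyme that makes retinoic acid, counted 54.0, 374, 67.7, 67.5 and 171 in PZ and 23930, 16570, 13520, 11980 and 25590 in HZ (7.30 ± 0.48, adjusted p = 1.7e-11). Ptgs2, the cyclooxygenase of inducible prostaglandin synthesis, rose from 40.6 ± 27.2 (SD) in PZ to 2612 ± 878 in HZ (6.20 ± 0.48, adjusted p = 1.8e-11). Alox12, a lipoxygenase, counted 15.1, 16.2, 79.5, 13.3 and 12.0 in PZ and 1016, 1579, 772, 1764 and 2793 in HZ, with PZ replicate 3 above the other 4 (6.09 ± 0.54, adjusted p = 1.9e-10). Dsp, the desmosomal protein desmoplakin, counted 36.7, 45.1, 16.5, 26.6 and 28.4 in PZ and 2083, 1378, 1617, 1018 and 2708 in HZ, lowest in HZ replicate 4 and highest in HZ replicate 5 (5.79 ± 0.38, adjusted p = 4e-14). Lipg, endothelial lipase, and Ntn4, a netrin, rose by 6.94 ± 0.70 and 5.78 ± 0.60 on the log2 scale.

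The other 5 of the 15 shared their lowest HZ library. Tie1 and Emcn, which mark endothelial cells, Kcne3, a potassium channel subunit, Slco2b1, an organic anion transporter, and Bcl6b, a transcriptional repressor, were each lowest in HZ replicate 1. Tie1 counted 0, 14.4, 0.914, 19.9 and 13.5 in PZ and 237, 823, 425, 1075 and 510 in HZ (6.45 ± 0.68, adjusted p = 4.8e-09). Emcn counted 0, 18.0, 3.66, 27.7 and 104 in PZ and 288, 1159, 854, 1420 and 670 in HZ (5.99 ± 0.78, adjusted p = 8.3e-07). HZ replicates 2 and 4, the highest for both, were also the highest for the summed endothelial list, 21675 and 24012, against 5685 in HZ replicate 1. Tie1 and Emcn are themselves members of that list, so this match is partly built in. None of the other 10 genes was lowest in HZ replicate 1. The part of vessel RNA in these differences was not tested.

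The 15 largest differences in the other direction were led by Wnk2, a kinase of the WNK family that regulates salt transport. Wnk2 counted 211, 322, 878, 1574 and 332 in PZ and 0, 0, 4.59, 0 and 0 in HZ. In HZ only 2 reads were seen, so the PZ level was 790 times the HZ level with a 95% counting interval of 218.5 to 6524, and the fitted difference was -8.47 ± 0.86 (adjusted p = 1e-09). Zfp648, a zinc finger gene, counted 1082, 953, 1306, 1351 and 775 in PZ and 0, 3.94, 32.2, 9.45 and 10.4 in HZ. Trabd2b, also called Tiki2, a membrane protease that inactivates Wnt ligands in frog and human cells, counted 770.5, 842, 890.4, 891 and 961 in PZ and 5.33, 39.4, 0, 14.2 and 5.20 in HZ. The PZ libraries held between 770.5 and 1351 of each of these last 2 genes, and the HZ libraries at most 39.4. Rap1gap, which switches off the small GTPase Rap1, fell by 6.45 ± 0.64 on the log2 scale (adjusted p = 9.3e-10). Ucma, a Gla-rich protein of the upper growth plate cartilage, counted 2087, 2326, 2999, 2641 and 2384 in PZ and 155, 7.87, 78.1, 70.9 and 2.60 in HZ. HZ replicate 1 kept more Ucma than the other HZ libraries, but no HZ library passed 155 (-6.32 ± 1.11, adjusted p = 6.5e-05). P4ha3, a subunit of the prolyl hydroxylase of collagen, counted 2078, 1641, 2237, 1507 and 1833 in PZ and 42.7, 15.8, 50.5, 236 and 13.0 in HZ (-5.47 ± 0.67, adjusted p = 3.6e-07), and Scube2, a secreted protein that releases hedgehog ligands, counted 1645, 1722, 1494, 1144 and 1373 in PZ and 224, 25.6, 25.3, 63.8 and 3.90 in HZ (-5.40 ± 0.84, adjusted p = 1.1e-05). Fbln7, a fibulin, fell from 3903 ± 231 (SD) in PZ to 169.8 ± 82.0 in HZ (-4.63 ± 0.40, adjusted p = 1.1e-09). Pamr1, Gm973, Kctd4 and Shank1 fell by 4.82 to 5.17 on the log2 scale. Igf2os fell from 547 ± 71.8 (SD) in PZ to 45.1 ± 41.9 in HZ (-4.65 ± 1.07, adjusted p = 0.00066), but it lies antisense to Igf2, and since the strand setting of the counting is not given, its reads cannot be told apart from those of Igf2.

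**Figure D2:**
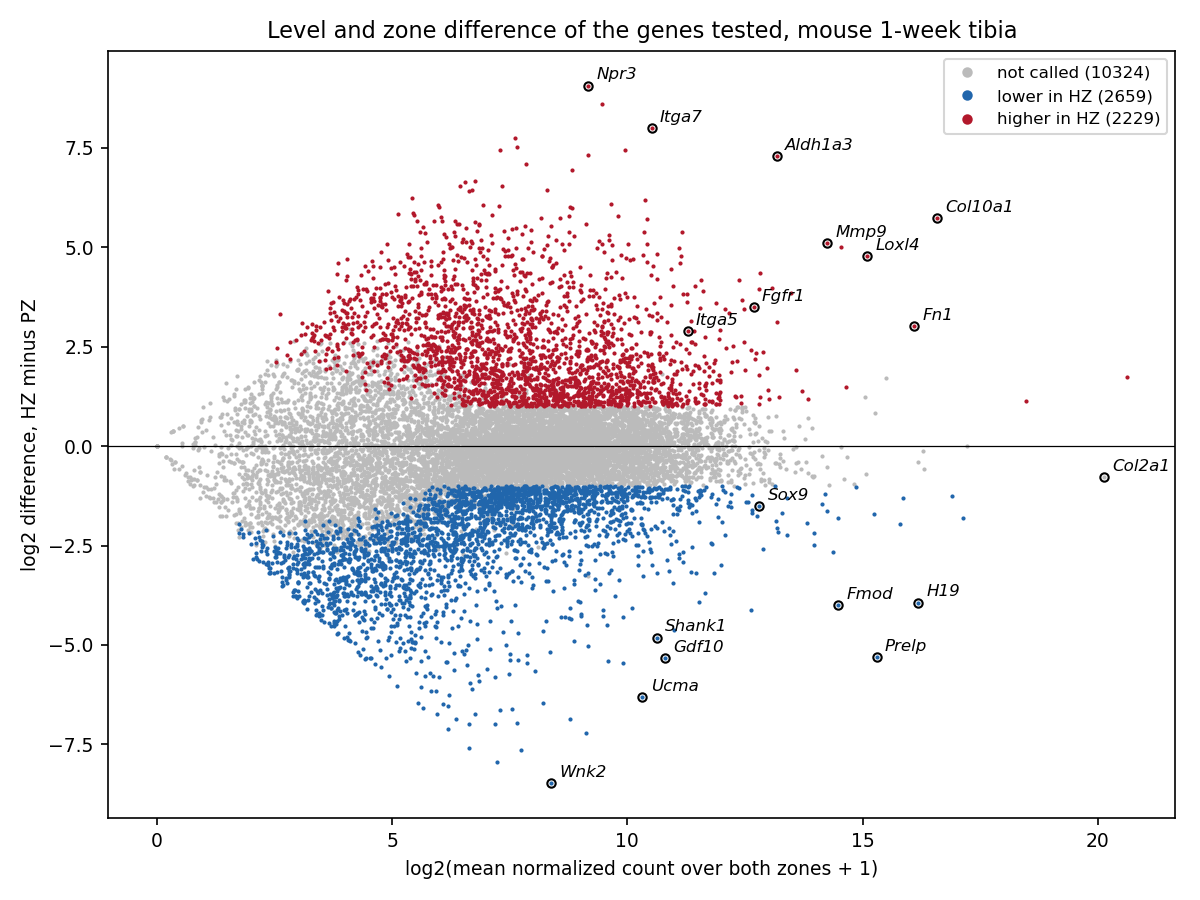
Zone difference (log2 HZ minus PZ, vertical) against the log2 of the mean normalized count over both zones plus 1 (horizontal) for the 15212 genes tested, with genes called at more than 2-fold coloured and the named genes labelled. The 2229 genes higher and 2659 lower lie on both sides of 0, and the slanted lower left edge is where a gene has no read in HZ.

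The promoters of 4 genes are shown because the genes stand for 3 themes of the comparison and carry short motifs of factors that the data bear on. Runx2, which drives hypertrophy, binds TGTGGT. AP-1, the dimer of Fos and Jun, was searched as TGANTCA, which reads alike on both strands. This pattern allows any middle base and is looser than the AP-1 consensus. Hypoxia-inducible factors bind ACGTG. Each motif was searched on both strands, where the matches of the hypoxia motif can overlap each other. Each line gives the 150 bases before the RefSeq start, 5′ to 3′ on the gene's strand (the plus strand for all 4) in build GRCm38.p6, with the letters of a motif, as written or on the other strand, in capitals.
Mmp13 chr9:7272364-7272513: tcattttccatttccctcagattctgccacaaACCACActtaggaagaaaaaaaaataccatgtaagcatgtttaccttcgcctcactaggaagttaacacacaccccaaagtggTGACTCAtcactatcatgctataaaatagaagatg
Spp1 chr5:104434961-104435110: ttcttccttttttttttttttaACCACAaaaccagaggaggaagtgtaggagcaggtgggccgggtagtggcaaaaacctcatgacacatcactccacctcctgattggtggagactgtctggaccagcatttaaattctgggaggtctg
Matn1 chr4:130944235-130944384: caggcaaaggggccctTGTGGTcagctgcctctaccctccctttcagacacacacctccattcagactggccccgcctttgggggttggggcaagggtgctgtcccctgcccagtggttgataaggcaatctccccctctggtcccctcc
Car9 chr4:43506876-43507025: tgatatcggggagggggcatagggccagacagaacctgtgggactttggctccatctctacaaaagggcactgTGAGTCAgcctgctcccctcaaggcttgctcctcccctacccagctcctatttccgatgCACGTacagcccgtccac
Mmp13 and Spp1 were higher in HZ, and Matn1 and Car9 lower. The runt motif began 118 bases before the start of Mmp13, 128 before that of Spp1 and 134 before that of Matn1, and the AP-1 motif began 35 bases before that of Mmp13 and 77 before that of Car9. The hypoxia motif of Car9 began 18 bases before the start. These motifs are common. Within 250 bases before the start, 14% of all 32851 RefSeq promoters held the runt motif, 6.75% the AP-1 motif and 16.6% the hypoxia motif. Of the 2229 genes higher in HZ, 1658 had a promoter in the table and 11.6, 6.09 and 16.5% of these held the 3 motifs, against 11.4, 4.04 and 22.8% of 1957 matched among the 2659 lower genes and 11.1, 4.48 and 21.1% of 11369 matched among all genes tested. A match is a description of letters and not of a bound site.

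Type IX and most fibrillar collagens of cartilage were lower in HZ, and type X and type VI collagen higher. Of 11 cartilage collagen genes, all tested, 4 were higher and 6 lower at an adjusted p under 0.05 (median -1.02). The type IX chains, which coat the type II fibrils, fell together, with -1.71 ± 0.44 for Col9a1, -1.46 ± 0.39 for Col9a2 and -1.97 ± 0.49 for Col9a3 (adjusted p between 0.0023 and 0.0042). Col9a3 counted 96470, 97850, 87700, 72900 and 89140 in PZ and 29830, 15840, 29560, 12150 and 34470 in HZ, the highest HZ value being 34470 and the lowest PZ value 72900. Col11a1 and Col11a2, which set the width of the fibrils, and Col27a1, another fibrillar chain, fell by 1.02 to 1.31 on the log2 scale. The 3 chains of type VI collagen, which builds the matrix closest to the cell, went the other way. Col6a1 counted 2335, 3649, 4092, 4439 and 3137 in PZ and 6624, 6250, 7509, 4955 and 7283 in HZ (0.91 ± 0.23, adjusted p = 0.002), and Col6a2 and Col6a3 rose by 1.17 ± 0.23 and 0.70 ± 0.20. No Col6a1 value of PZ reached the lowest of HZ.

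Most cartilage proteoglycans and matrix proteins were lower in HZ. Of 38 listed, 36 were tested, of which 3 were higher and 22 lower (median -1.50). Next to Prelp and Ucma, the small leucine-rich proteoglycans Fmod and Epyc fell, Fmod from 43030 ± 4625 (SD) in PZ to 2945 ± 1424 in HZ (-4.01 ± 0.51, adjusted p = 1e-06) and Epyc by 3.19 ± 0.51 on the log2 scale. Fmod counted 44950, 47570, 41980, 35550 and 45100 in PZ and 3771, 1319, 4943, 2145 and 2547 in HZ, with the highest HZ value, in replicate 3, far under the lowest PZ value. Bgn, biglycan, fell with little spread, from 26260 ± 4441 (SD) in PZ to 11500 ± 2328 in HZ (-1.20 ± 0.13, adjusted p = 8.2e-09). Scrg1, a small secreted protein of cartilage, fell by 4.50 ± 0.60. The matrilins, which link fibrils and proteoglycans, fell less, Matn1 by 1.67 ± 0.39 and Matn3 by 1.93 ± 0.58. Comp fell by 0.96 ± 0.37 (adjusted p = 0.039), a call that was lost without HZ replicate 2 or 4 or without PZ replicate 1, 2, 4 or 5 (adjusted p between 0.054 and 0.1), and Hapln1, the link protein that ties aggrecan to hyaluronan, did not pass the test (-0.59 ± 0.48, adjusted p = 0.34). The 3 members that rose were Fn1, Vcan and Frzb. Fn1, fibronectin, counted 9245, 13730, 16570, 28260 and 13300 in PZ and 94520, 127500, 115200, 157300 and 127800 in HZ, highest in replicate 4 of both zones and without overlap (3.02 ± 0.21, adjusted p = 5.3e-11). Frzb, a secreted Wnt antagonist, counted 209.7, 266, 134, 107 and 334 in PZ and 3336, 2323, 1505, 1580 and 6650 in HZ, highest in HZ replicate 5 (3.75 ± 0.40, adjusted p = 2.8e-08). Vcan, the large proteoglycan versican, rose by 2.79 ± 0.43.

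Enzymes that build this matrix were lower in HZ with it. Among genes of collagen hydroxylation, crosslinking and processing, 5 of 23 tested were higher and 16 lower (median -1.09). Plod2, a lysyl hydroxylase, fell from 12890 ± 1213 (SD) in PZ to 2321 ± 1088 in HZ (-2.58 ± 0.30, adjusted p = 1.9e-07). Loxl4, a lysyl oxidase, was the main exception. Loxl4 counted 1444, 2621, 2251, 4168 and 2177 in PZ and 72000, 66870, 48660, 51940 and 99510 in HZ, with every HZ library far above every PZ library (4.78 ± 0.34, adjusted p = 6.5e-11). Of 37 genes of sulfated glycosaminoglycan and hyaluronan synthesis, 9 were higher and 16 lower (median -0.60). Chst11, a sulfotransferase for chondroitin, Slc26a2, the sulfate transporter whose loss causes diastrophic dysplasia, and Papss2, which makes the sulfate donor, fell by 2.50 ± 0.33, 2.45 ± 0.33 and 2.24 ± 0.35 on the log2 scale (adjusted p between 1.1e-06 and 1.3e-05). Slc26a2 counted 5575, 6372, 5747, 5269 and 6743 in PZ and 1211, 423, 1224, 1240 and 1907 in HZ, lowest in HZ replicate 2 and without overlap. Sulf1, which removes sulfate groups from heparan sulfate outside the cell, rose instead, with 63.8, 169, 127, 174 and 109 in PZ and 2741, 3693, 2159, 2766 and 2882 in HZ (4.52 ± 0.26, adjusted p = 9.6e-16).

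Genes of hypertrophy and mineralization were mostly higher in HZ, 14 of 24 tested against 5 lower (median 1.01). Alpl, the alkaline phosphatase that releases phosphate for mineral, counted 619, 881, 663, 853 and 1377 in PZ and 13700, 12560, 12260, 10110 and 18580 in HZ. Both groups were tight and far apart (3.96 ± 0.18, adjusted p = 1e-16), and replicate 5 was the highest in each zone. Ibsp, bone sialoprotein, counted 254, 1155, 1205, 4010 and 3883 in PZ and 15640, 22360, 24170, 24030 and 17450 in HZ, and Spp1, osteopontin, counted 294, 289.6, 2536, 2124 and 2023 in PZ and 12150, 15950, 15660, 17960 and 16820 in HZ. In both genes PZ replicates 1 and 2 were the lowest, and the HZ libraries lay close together (3.86 ± 0.52 and 3.98 ± 0.54, adjusted p = 2e-06 and 2.2e-06). Vegfa, the signal that draws vessels into the cartilage, counted 3147, 3320, 2770, 2142 and 1163 in PZ and 7893, 11770, 8451, 10820 and 6483 in HZ (1.92 ± 0.22, adjusted p = 3.3e-08). PZ replicate 5 held the least of all, and the highest PZ value, 3320, was under the lowest HZ value, 6483. Ank, a transporter that exports pyrophosphate or its precursor, and Fam20c, the kinase of secreted proteins, rose by 2.13 ± 0.25 and 1.48 ± 0.21. Runx2, the master regulator of hypertrophy, rose by only 0.38 ± 0.10 (adjusted p = 0.0036), from 7129 ± 723 (SD) in PZ to 9340 ± 1712 in HZ.

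The 5 members that were lower were Panx3, Smpd3, Enpp1, Sp7 and S100a1, a calcium-binding protein (-1.16, adjusted p = 0.0071). Panx3, a channel of prehypertrophic cells, counted 18020, 24620, 16240, 16870 and 23070 in PZ and 14750, 6596, 17380, 8123 and 14490 in HZ (-0.76 ± 0.24, adjusted p = 0.011), and Smpd3, a sphingomyelinase needed for mineralization, counted 25130, 36920, 20830, 22940 and 23860 in PZ and 15940, 8941, 23000, 10320 and 10920 in HZ (-0.97 ± 0.23, adjusted p = 0.0011). Both overlapped between the zones, through HZ replicate 3 for Smpd3 and Panx3. Enpp1, which makes pyrophosphate, an inhibitor of mineral, fell by 0.51 ± 0.17, and Sp7, osterix, by 0.45 ± 0.18. The Sp7 call was lost without HZ replicate 1, 2 or 5 or PZ replicate 1, 2 or 4 (adjusted p between 0.052 and 0.14), and limma-voom on the reads called 2 members of the list lower in place of 5.

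Matrix proteases and their inhibitors were also mostly higher in HZ, 20 of 37 tested against 2 lower (median 1.56), or 4 lower without HZ replicate 3. Mmp9, the gelatinase of osteoclasts and of the chondro-osseous junction, counted 185, 1264, 612, 1882 and 3686 in PZ and 19760, 52400, 29910, 56690 and 27960 in HZ (5.11 ± 0.61, adjusted p = 3.7e-07), and Mmp14, the membrane collagenase that activates other proteases, 1643, 1819, 1701, 2234 and 2130 in PZ and 3451, 9616, 6560, 11720 and 6024 in HZ (1.86 ± 0.25, adjusted p = 9e-07). HZ replicates 2 and 4 were highest for both and for Mmp13, and HZ replicate 1 lowest. Adamts1 counted 205, 338, 184, 224 and 212 in PZ and 3493, 3004, 2515, 2487 and 2525 in HZ, with an even level over HZ (3.61 ± 0.25, adjusted p = 2.1e-13). Adamts5, the aggrecanase of joint cartilage, rose by 3.19 ± 0.41, with HZ replicate 2 at 1242 and the other 4 between 262 and 441. Timp3, an inhibitor bound to the matrix, rose by 2.35 ± 0.28. Mmp2, the other gelatinase, was lower in HZ, from 2779 ± 397 (SD) in PZ to 1108 ± 302 in HZ (-1.35 ± 0.22, adjusted p = 8.7e-06). Ctsk and Mmp9 are also osteoclast genes, and the osteoclast values are given with the other cell types.

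Among chondrocyte transcription factors, 15 of 33 tested (of 35 listed) were higher and 11 lower (median 0.34). The Sox trio of cartilage was lower in HZ. Sox9, which turns on the collagen and aggrecan genes, counted 11150, 12340, 10410, 9984 and 8089 in PZ and 4976, 2927, 6556, 3073 and 2129 in HZ (-1.51 ± 0.42, adjusted p = 0.0053), Sox6 fell by 1.49 ± 0.28, and Sox5 counted 4578, 4090, 4771, 4305 and 5498 in PZ and 840, 258, 903, 420.4 and 452 in HZ (-3.16 ± 0.48, adjusted p = 9.3e-06). The lowest PZ value of each was above its highest HZ value. Runx3 fell from 4021 ± 263 (SD) in PZ to 612 ± 369 in HZ (-2.91 ± 0.36, adjusted p = 4.8e-07), while Runx1 rose from 172 ± 146 (SD) in PZ to 1366 ± 428 in HZ (3.35 ± 0.39, adjusted p = 6.6e-08), so that the 3 Runx genes differed in direction and size. Nkx3-2, a repressor of hypertrophy, counted 121, 97.4, 129.8, 116 and 141 in PZ and 0, 0, 0, 18.9 and 1.30 in HZ. It was at 0 in 3 HZ libraries, and the PZ level was 34.1 times the HZ level (95% counting interval 17.8 to 74.9). Dlx5, a homeobox activator, fell by 1.43 ± 0.19, and its relative Dlx3 rose by 2.96 ± 0.41. Foxc1, a forkhead factor needed for endochondral bone, rose by 1.61 ± 0.19.

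The Mef2 factors, which promote hypertrophy, rose together. Mef2d counted 1807, 2337, 1654, 1597 and 1548 in PZ and 9701, 6872, 7562, 6200 and 8777 in HZ (2.13 ± 0.15, adjusted p = 5e-13), Mef2a rose by 1.46 ± 0.13, and Mef2c by 1.27 ± 0.17 on the log2 scale. Of the class II histone deacetylases that hold Mef2 in check, Hdac5 rose, with 293, 342, 259.6, 218 and 256 in PZ and 1731, 1266, 1192, 1549 and 1248 in HZ (2.35 ± 0.22, adjusted p = 1.5e-10), and Hdac4 did not pass the test (-0.20 ± 0.24, adjusted p = 0.53). The lowest HZ library of Hdac5 was at 1192 and the highest PZ library at 342. Fosl2, a subunit of AP-1, rose from 606 ± 154 (SD) in PZ to 3405 ± 808 in HZ (2.50 ± 0.18, adjusted p = 5e-13).

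The hedgehog and PTHrP genes showed the ligand high in HZ and the targets high in PZ. Of 17 tested, 3 were higher and 8 lower (median -0.56). Next to Ihh, the list's other higher members were Disp1, which releases the hedgehog ligand from the cell, and Pth1r, the receptor for PTHrP. Disp1 counted 1016, 1865, 929, 985 and 914 in PZ and 6280, 4754, 6103, 3789 and 2534 in HZ (2.02 ± 0.27, adjusted p = 7.1e-07), and Pth1r counted 5401, 7348, 3709, 4300 and 4577 in PZ and 13430, 9710, 14070, 11000 and 9093 in HZ (1.20 ± 0.23, adjusted p = 0.00011). Both were without overlap, and Disp1 was lowest among HZ in replicate 5. Gli1 and Ptch1, the transcription factor and the receptor that hedgehog signals induce, were lower. Gli1 counted 2818, 1971, 2445, 2485 and 1853 in PZ and 139, 319, 239, 349.6 and 200.4 in HZ (-3.27 ± 0.30, adjusted p = 3.5e-10), and Ptch1 counted 16400, 15150, 15560, 13010 and 17460 in PZ and 3133, 4199, 2621, 3680 and 3744 in HZ (-2.17 ± 0.19, adjusted p = 3.5e-10). For both genes the highest HZ value was far under the lowest PZ value. Kif7, a kinesin of the hedgehog pathway in the cilium, fell by 2.12 ± 0.43, and Gnas, the Gs alpha subunit downstream of Pth1r, by 0.66 ± 0.11. Pthlh, the ligand made by resting chondrocytes, was seen in PZ replicate 1 alone, at 19.4 normalized counts, and at 0 in the other 9 libraries. A difference in Pthlh was not detectable at this depth (-0.87 ± 0.77, adjusted p = 0.38).

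In a list of Bmp and Gdf ligands and related genes, 8 of 14 tested were higher in HZ and 3 lower (median 1.84). Besides Bmp2, the 8 included Bmp8a and Bmp6. Bmp8a counted 6.48, 14.4, 21.0, 35.4 and 22.4 in PZ and 469, 581, 597, 732 and 528 in HZ (4.96 ± 0.33, adjusted p = 6.4e-14), and Bmp6 counted 111, 233, 84.1, 145 and 191 in PZ and 4485, 2963, 3785, 2584 and 7856 in HZ (4.79 ± 0.47, adjusted p = 9e-09). Bmp6 was highest in HZ replicate 5 and Bmp8a in HZ replicate 4. Inhba, an activin chain, rose by 3.60 ± 0.45, and Bmp1, a protease that cuts procollagens and is no Bmp ligand in spite of its name, by 1.42 ± 0.16. Bmp5 joined Bmp7 and Gdf10 on the PZ side, with a fall of 2.60 ± 0.43 (adjusted p = 9.9e-06). Of 17 Bmp antagonists, 3 were higher and 2 lower, and of 14 receptors, Smads and Id genes 3 were higher and 4 lower. Smad7, an inhibitory Smad that the pathway induces, rose from 131 ± 24.8 (SD) in PZ to 751 ± 262 in HZ (2.47 ± 0.26, adjusted p = 2.6e-09), and Bmper, a secreted Bmp-binding protein, fell from 547 ± 75.2 (SD) in PZ to 66.5 ± 45.7 in HZ (-3.40 ± 0.58, adjusted p = 2.1e-05). Sostdc1 had no read in HZ, which puts its PZ level at least 15.1-fold higher over the group (floor of 3 reads). The receptor genes Bmpr1a and Bmpr1b fell by 1.09 ± 0.18 and 4.09 ± 0.88, and Bmpr1b was at 0 in HZ replicates 1 and 4.

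In the TGF-beta pathway, 8 of 15 tested were higher and 2 lower (median 1.42). Tgfb3 counted 126, 215, 246, 287 and 224 in PZ and 2544, 1671, 1424, 1566 and 3260 in HZ (3.22 ± 0.23, adjusted p = 3.2e-13), and Tgfb1 rose by 1.75 ± 0.17. Every HZ library held far more Tgfb3 than any PZ library, and HZ replicate 5 the most. Ltbp3, which stores latent TGF-beta in the matrix, rose from 1066 ± 167 (SD) in PZ to 4509 ± 1372 in HZ (2.04 ± 0.15, adjusted p = 8.3e-13). Tgfbi, a matrix protein named for its induction by TGF-beta, went the other way, with 4952, 6203, 7707, 7780 and 6258 in PZ and 523, 661, 894, 914 and 634 in HZ (-3.19 ± 0.30, adjusted p = 2e-09). Eng, a coreceptor that is also an endothelial gene, rose by 3.77 ± 0.30 and was lowest among HZ in replicate 1.

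Wnt ligands and receptors leaned to PZ, with 5 of 24 tested (of 27 listed) higher and 11 lower in HZ (median -0.72). Fzd9, Fzd2 and Fzd1, Wnt receptors, were all lower. Fzd9 had 4 reads in all HZ libraries together and was 56.6 times as high in PZ (95% counting interval 22.0 to 208.5), Fzd2 was at 0 in HZ replicates 4 and 5 and fell by 4.41 ± 0.79, and Fzd1 fell by 2.03 ± 0.34. Rspo3, which amplifies Wnt signals, fell by 2.28 ± 0.31, and Lrp4, a coreceptor that binds sclerostin, rose from 358 ± 126 (SD) in PZ to 2530 ± 499 in HZ (2.86 ± 0.25, adjusted p = 8.8e-11). Of 18 Wnt antagonists and response genes, 6 were higher and 4 lower. Sfrp1 and Sfrp5, secreted decoys for Wnts, and Nkd1, an inhibitor inside the cell, fell by 4.32 to 5.38 on the log2 scale. Sfrp5 counted 469, 368, 304, 178 and 363 in PZ and 64, 7.87, 45.9, 0 and 0 in HZ. Axin2, which Wnt/beta-catenin signals induce, rose, with 124, 139.8, 199, 361 and 119.6 in PZ and 1285, 437, 857, 645 and 649 in HZ (2.07 ± 0.30, adjusted p = 1.2e-06). HZ replicate 1 was the highest for Axin2 and HZ replicate 2 the lowest, and both groups stayed apart.

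In the Fgf pathway 9 of 17 tested (of 20 listed) were higher and 4 lower (median 1.42), and the receptors split. Fgfr1 counted 838, 788, 1231, 1177 and 1274 in PZ and 12690, 10320, 8846, 11480 and 17240 in HZ (3.50 ± 0.17, adjusted p = 1.1e-16). Fgfr3, the receptor that restrains growth plate proliferation, counted 11160, 11780, 9355, 9053 and 9941 in PZ and 6186, 3813, 8019, 3503 and 5462 in HZ (-0.99 ± 0.37, adjusted p = 0.035). The groups lay far apart for Fgfr1 and close together for Fgfr3, whose call was lost without HZ replicate 2 or 4 or PZ replicate 1, 2 or 5 (adjusted p between 0.052 and 0.089). Fgfr4 counted 291, 288, 258, 197 and 210.1 in PZ and 21.3, 0, 9.19, 14.2 and 0 in HZ, and Fgfrl1, a receptor without a kinase domain, fell by 2.98 ± 0.30. Spry4 and Dusp6, feedback inhibitors that Fgf signals induce, rose by 5.28 ± 0.43 and 3.39 ± 0.50. Dusp6 counted 38.9, 9.92, 36.6, 35.4 and 35.9 in PZ and 42.7, 492, 512, 735 and 339.6 in HZ. HZ replicate 1, at 42.7, was close to the PZ libraries and the other 4 HZ libraries lay between 339.6 and 735. Spry4 was lowest in HZ replicate 1 as well, as the summed endothelial list was, and the part of vessel RNA in Spry4 was not tested.

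In the Igf and growth hormone pathway 9 of 26 tested were higher and 8 lower (median 0.17). Igf2, the main Igf of young cartilage, counted 235600, 241300, 238200, 229300 and 183100 in PZ and 77220, 54310, 78370, 56530 and 55800 in HZ (-1.82 ± 0.47, adjusted p = 0.0027). H19, the noncoding RNA of the same imprinted locus, counted 159000, 141400, 146000, 129200 and 119300 in PZ and 12260, 8118, 18070, 7407 and 4507 in HZ (-3.94 ± 0.52, adjusted p = 1.6e-06). Both fell in all 5 HZ libraries, H19 further. The receptors Igf1r and Igf2r fell by 1.41 ± 0.17 and 1.50 ± 0.15, and Irs1, the docking protein below the receptor, by 1.87 ± 0.33. Igfbp3 and Igfbp4, binding proteins, rose by 4.89 ± 0.67 and 2.92 ± 0.33, and Pappa, a protease that frees Igf from Igfbp4, by 2.17 ± 0.35. Igfbp3 counted 8.64, 61.3, 14.6, 50.9 and 108 in PZ and 184, 2073, 1550, 2360 and 883 in HZ, and its HZ order, with replicate 1 lowest and replicates 2 and 4 highest, was that of the endothelial list. Ghr, the growth hormone receptor, rose by 1.46 ± 0.20. Igf1 did not pass the test (1.22 ± 0.55, adjusted p = 0.074), but did without HZ replicate 5 or PZ replicate 5 (adjusted p = 0.026 and 0.044).

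The receptors of C-type natriuretic peptide, a signal that lengthens bones, differed among themselves. Of 9 listed genes 7 were tested, and 4 were higher and 0 lower in HZ (limma, 0 also at an unadjusted p under 0.05 and by limma-voom). Npr2, the signalling receptor, was even between the zones, with 1040, 813, 1038, 805 and 610.1 in PZ and 888, 715, 1068, 659 and 746 in HZ (-0.07 ± 0.18, adjusted p = 0.76). Npr3, the clearance receptor, and Npr1, the receptor for the atrial peptide (4.70 ± 0.58, adjusted p = 5.7e-08), were higher in HZ. Prkg1 rose by 2.61 ± 0.33, and Prkg2, the cGMP kinase of chondrocytes, did not pass the test (0.27 ± 0.29, adjusted p = 0.48).

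Genes of cell division were lower in HZ. Of 40 mitosis genes, all tested, 35 were lower and 0 higher (median -1.07), and leaving out any 1 library gave 27 to 36 lower. Aurkb, a kinase of the chromosomal passenger complex, counted 552, 369, 589, 539 and 538 in PZ and 149, 122, 73.5, 210.2 and 105 in HZ (-2.03 ± 0.25, adjusted p = 4.7e-08). The highest HZ value was 210.2 and the lowest PZ value 369. Of 40 S-phase genes, 18 were lower and 0 higher (median -0.69). At an unadjusted p under 0.05 in limma, 0 mitosis and 1 S-phase gene were higher, and limma-voom called 0 higher in both lists. Pold1, the catalytic subunit of DNA polymerase delta, counted 327, 269, 344, 248 and 275 in PZ and 82.7, 74.8, 199.8, 80.3 and 7.81 in HZ, and Chaf1a, a histone chaperone, fell by 1.45 ± 0.29. Pold1 varied most among HZ, from 7.81 in replicate 5 to 199.8 in replicate 3. Replication-dependent histone genes, whose mRNAs lack poly(A) tails, gave few calls, 3 lower and 0 higher of 43 tested (0 higher also without adjustment and by limma-voom, 3 lower becoming 1 to 5 over all settings, 1 without HZ replicate 4 or PZ replicate 5 and 5 without HZ replicate 5). Among 25 tested brakes and G1 regulators, 8 were higher and 6 lower. Cdkn1a, the cyclin-dependent kinase inhibitor p21, counted 491, 936, 543, 877 and 927 in PZ and 3003, 4453, 3349, 3309 and 6520 in HZ (2.44 ± 0.22, adjusted p = 1.9e-10), and Btg1, an antiproliferative gene, rose by 2.02 ± 0.22. Cdkn1c, the inhibitor p57 of hypertrophic chondrocytes, counted 3306, 5534, 2749, 3034 and 4231 in PZ and 8397, 4868, 7849, 4578 and 11060 in HZ, with overlap through HZ replicates 2 and 4 (0.93 ± 0.33, adjusted p = 0.022), and lost the call without HZ replicate 1 or 5 or PZ replicate 3 or 4 (adjusted p between 0.051 and 0.07). Ccnd1, cyclin D1, and its kinase Cdk4 fell by 1.11 ± 0.26 and 0.83 ± 0.21.

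Genes of the hypoxia response and of glycolysis were lower in HZ, 25 of 34 tested against 5 higher (median -1.0017). Pdk1, which keeps pyruvate out of the mitochondrion, counted 1168, 1551, 1350, 1116 and 1138 in PZ and 245, 146, 595, 66.1 and 183 in HZ (-2.70 ± 0.35, adjusted p = 1.9e-07), Pgk1 fell by 1.90 ± 0.29, and Ldha, lactate dehydrogenase, counted 6862, 10970, 7510, 6705 and 10730 in PZ and 2120, 2949, 3877, 2964 and 4189 in HZ (-1.42 ± 0.17, adjusted p = 7.2e-08). The zones did not overlap in any of these. Car9, a carbonic anhydrase that hypoxia induces, counted 249, 285, 276, 84.1 and 111 in PZ and 16, 5.91, 0, 0 and 0 in HZ. It was at 0 in HZ replicates 3 to 5, and the PZ level was 55.7 times the HZ level (95% counting interval 29.2 to 122). Slc2a1, the glucose transporter Glut1, did not pass the test (-0.31 ± 0.28, adjusted p = 0.39). The 2 hypoxia factors themselves differed. Epas1 (Hif-2 alpha) counted 126, 246, 208, 261 and 366 in PZ and 2763, 4374, 3266, 4079 and 4361 in HZ (4.02 ± 0.22, adjusted p = 3.2e-16), while Hif1a fell by 0.42 ± 0.14 (adjusted p = 0.014, 0.057 without PZ replicate 5). Adm, adrenomedullin, went with Epas1, with 0, 1.80, 1.83, 4.43 and 0 in PZ and 69.3, 86.6, 41.4, 222 and 83.3 in HZ, 65.8 times as high in HZ (95% counting interval 32.9 to 154). Of the 25 lower members 24 had a RefSeq promoter, and 14 of these (58.3%) held the hypoxia motif within 250 bases before the start. The list was chosen for genes of that response, and the share is a description of it.

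Ribosomal protein genes were lower by a small and even amount. Of 76 listed, 74 were tested, and 70 were lower and 0 higher by limma (median -0.85), with 0 higher at an unadjusted p under 0.05 and by limma-voom as well. Rpl3 counted 3138, 3116, 3000, 3081 and 3528 in PZ and 1368, 1461, 1463, 1429 and 1721 in HZ, with little spread among the libraries of a zone (-1.09 ± 0.10, adjusted p = 2.3e-10), and Rps15a fell by 1.402 ± 0.16. Most respiratory chain genes were not called (51 of 62 tested), with 6 higher and 5 lower (median 0.05). These 2 counts ran from 3 to 8 and from 0 to 6 over the settings, with 2 or 3 lower without HZ replicate 4, PZ replicate 2 or PZ replicate 4, and 3 higher without PZ replicate 1, 3 or 4. Of 39 genes of endoplasmic reticulum folding, stress and secretion, 8 were higher and 20 lower (median -0.46). Serpinh1, the collagen chaperone Hsp47, counted 9586, 12840, 10610, 10290 and 10210 in PZ and 2507, 3055, 4249, 3432 and 2901 in HZ (-1.74 ± 0.12, adjusted p = 2.5e-13). Creb3l2, a transcription factor of collagen secretion, and Hspa5, the chaperone BiP, fell by 1.53 ± 0.16 and 0.84 ± 0.13. Atf3, a stress-induced factor, rose from 19.8 ± 13.4 (SD) in PZ to 693 ± 268 in HZ (5.17 ± 0.52, adjusted p = 8e-10).

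Integrins and anchoring genes were mostly higher in HZ, 13 of 21 tested against 1 lower (median 0.84). Besides Itga7, Itga5, the fibronectin receptor chain, counted 571, 494, 715, 557 and 578.7 in PZ and 5090, 5498, 3278, 3914 and 4223 in HZ (2.90 ± 0.16, adjusted p = 3.4e-16), and Itga2, a collagen receptor chain, rose by 5.09 ± 0.36. Itga10, the collagen receptor chain of chondrocytes, was the 1 lower member (-0.42 ± 0.16, adjusted p = 0.028), with overlap through HZ replicates 1 and 3, and the call was lost without HZ replicate 2, 4 or 5 or PZ replicate 1 or 2 (adjusted p between 0.051 and 0.13). Planar polarity genes, which order the columns, were 4 higher and 7 lower of 19. Prickle1 counted 2013, 1711, 2105, 1991 and 2471 in PZ and 48, 126, 163, 142 and 179.5 in HZ (-4.08 ± 0.44, adjusted p = 2.8e-08), and Ptk7 fell by 1.60 ± 0.23.

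Ion, water and volume transport genes were 15 higher and 6 lower of 28 tested (of 32 listed, median 0.50), with 3 lower when HZ replicate 2, HZ replicate 4 or PZ replicate 1 was left out. Piezo1, a mechanically gated channel, counted 2613, 2410, 2399, 2015 and 2479 in PZ and 11500, 12220, 10320, 8057 and 12800 in HZ (2.19 ± 0.12, adjusted p = 3.6e-16). Slc9a2, a sodium-proton exchanger, rose by 6.03 ± 0.75, Atp2b4, a calcium pump, by 2.32 ± 0.15, and Aqp1, a water channel, by 2.34 ± 0.49. Wnk4, a kinase that regulates such transporters, was outside the list and counted 722, 974, 619, 613 and 529 in PZ and 16330, 13410, 14250, 13400 and 11780 in HZ (4.34 ± 0.22, adjusted p = 3.6e-16). Every HZ value of Wnk4 was far above every PZ value, the direction opposite to that of its relative Wnk2.

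In the Bcl2 and caspase list 17 of 29 tested (of 30 listed) were higher and 3 lower (median 1.21), with proapoptotic and antiapoptotic genes among them. Bcl2l11, the proapoptotic gene Bim, which was looked at after its values were seen, rose from 69.0 ± 23.6 (SD) in PZ to 599 ± 231 in HZ (3.09 ± 0.29, adjusted p = 1.6e-10). Mcl1, an antiapoptotic gene, rose by 1.13 ± 0.19. Bcl2 counted 1337, 1045, 1231, 1174 and 1436 in PZ and 709, 541, 671, 477 and 768 in HZ, with each HZ library below each PZ library (-0.99 ± 0.19, adjusted p = 5.7e-05), and Bnip3, a hypoxia-induced member, fell by 1.41 ± 0.33. Immediate early genes, which signals and stress switch on within minutes, were 16 higher and 0 lower of 22 tested (of 23 listed, median 2.38, with 0 lower at an unadjusted p under 0.05 in limma and by limma-voom). Egr1 counted 118, 69.5, 148, 133 and 116 in PZ and 1259, 1732, 1135, 1412 and 2324 in HZ (3.73 ± 0.33, adjusted p = 3.3e-10), Fos rose by 3.33 ± 0.59, and Junb by 4.63 ± 0.63. The cholesterol synthesis list gave few calls, with 2 of 24 lower and 0 higher (0 also at an unadjusted p under 0.05 in limma and by limma-voom). The lower members were Srebf1, a transcription factor and not a synthesis enzyme (-1.995 ± 0.22, adjusted p = 8.1e-09), and Dhcr7 (-1.27, adjusted p = 0.0043). The count of lower cholesterol genes was 4 without HZ replicate 1 and 6 without HZ replicate 3, and 1 gene was higher without HZ replicate 2.

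**Figure D3:**
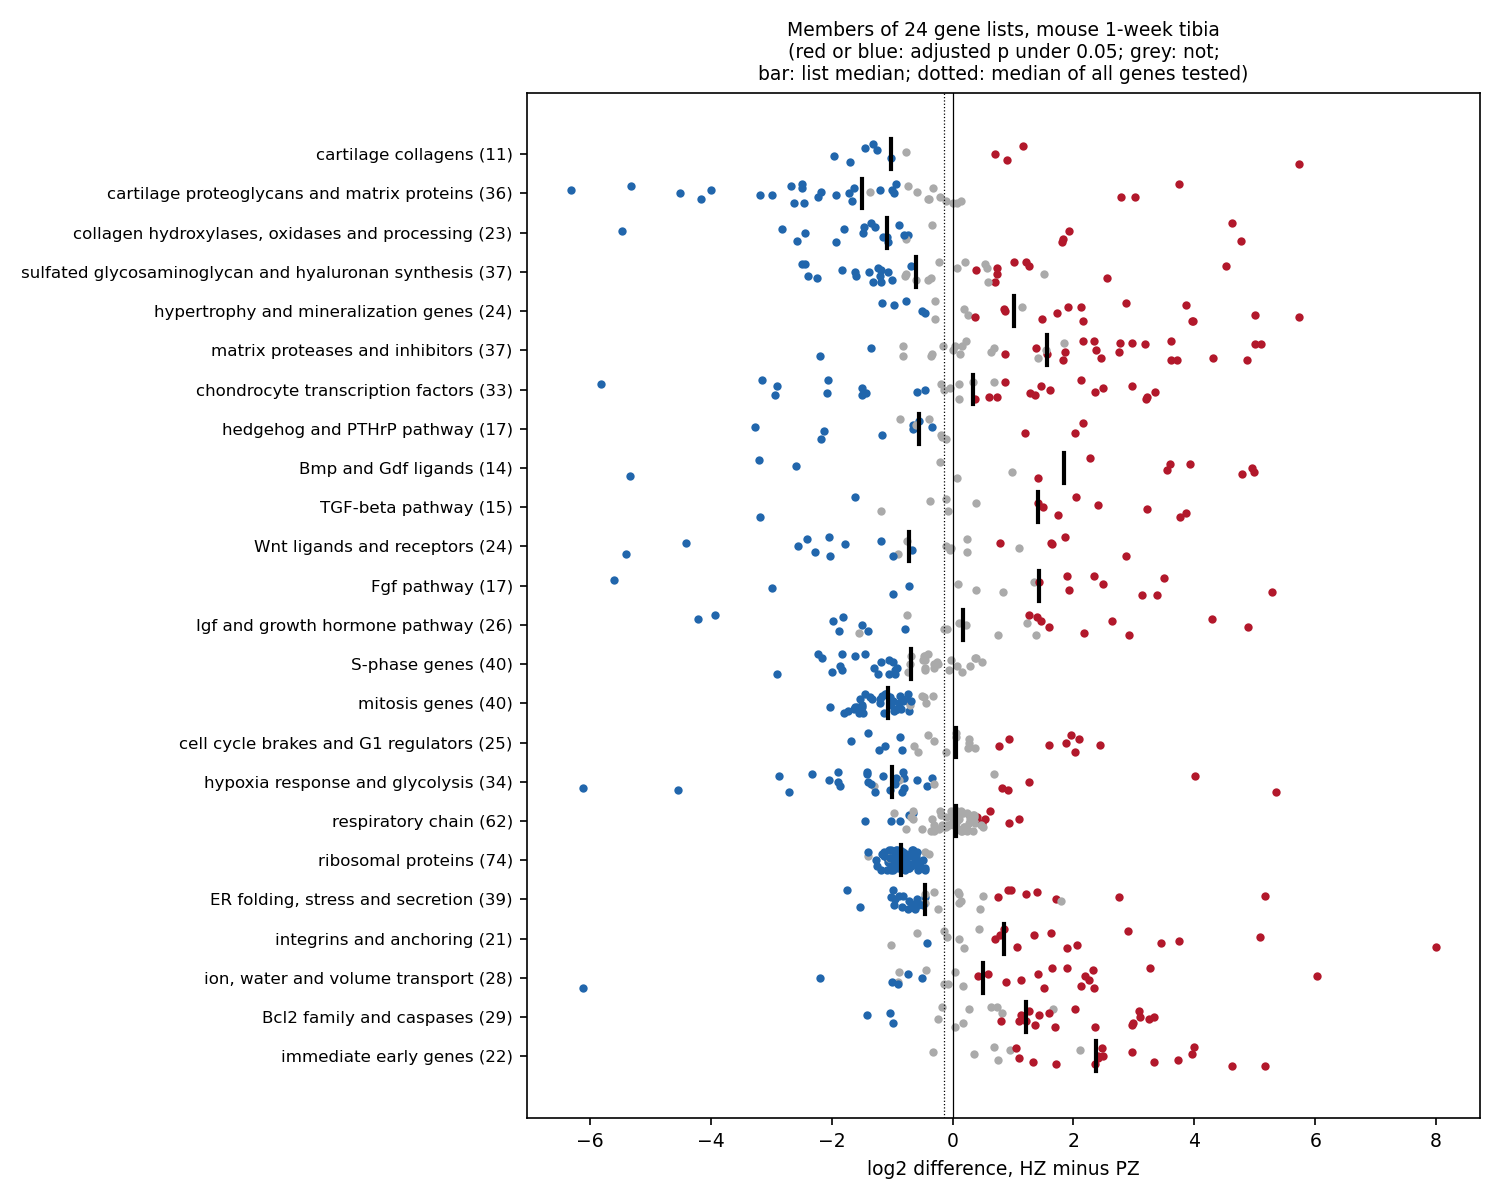
Zone difference (log2 HZ minus PZ) of each tested member of 24 gene lists (points, with the number tested in brackets), coloured where the adjusted p was under 0.05, with the list median as a bar and the median of all genes tested, -0.15, as a dotted line. The ribosomal protein and mitosis genes lie below 0, while matrix proteases, Bmp ligands and immediate early genes lie mostly above it.

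Markers of other cell types differed between the zones as well. Of 16 endothelial genes, 15 were higher and 1 lower (median 5.11), and their summed level ran from 277 to 1358 normalized counts in PZ and from 5685 to 24012 in HZ. Pecam1 counted 14.1, 38.8, 10.1, 81.9 and 75.5 in PZ and 477, 1925, 1215, 2492 and 1498 in HZ (5.31 ± 0.49, adjusted p = 1.2e-09), and Cdh5, vascular cadherin, counted 23.8, 88.4, 45.7, 146 and 307 in PZ and 821, 6394, 3925, 7639 and 3648 in HZ (5.37 ± 0.62, adjusted p = 1.9e-07). HZ replicate 1 was lowest among HZ and HZ replicate 4 highest for both. Vwf, von Willebrand factor, was the lower gene, with 126, 146, 159, 118 and 137 in PZ and 192, 55.1, 36.8, 4.72 and 6.50 in HZ (-2.29 ± 0.61, adjusted p = 0.0024). Of 14 osteoclast genes 13 were higher (median 3.53, sums of 2865 to 9554 in PZ and 47809 to 91286 in HZ), and of 15 macrophage genes 11 (median 2.86, 587 to 2004 and 6763 to 10096). Acp5, the tartrate-resistant phosphatase of osteoclasts, counted 102, 350, 691, 1447 and 1196 in PZ and 9941, 11800, 9179, 11300 and 7075 in HZ (4.19 ± 0.60, adjusted p = 4.4e-06), and Csf1r, the receptor of macrophages and osteoclast precursors, counted 29.2, 95.6, 136, 465 and 227 in PZ and 2040, 1533, 2090, 2393 and 1207 in HZ (3.75 ± 0.56, adjusted p = 7.6e-06). Both lists had 0 genes lower (limma, also without adjustment and by limma-voom), no HZ library came down to a PZ library, and PZ replicates 4 and 5 held the most osteoclast RNA among PZ.

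Bone matrix genes overlapped between the zones. Of 20 osteoblast and bone matrix genes, 9 were higher and 2 lower (median 1.51), with sums of 13845 to 135228 in PZ and 97646 to 251395 in HZ. The lower count was 0 without HZ replicate 2 or PZ replicate 4 and 1 without HZ replicate 1 or 5 or PZ replicate 1, 2 or 3. Col1a1, the type I collagen of bone, counted 4900, 4953, 28570, 67260 and 39140 in PZ and 55250, 45710, 126000, 48670 and 43180 in HZ and did not pass the test (1.70 ± 0.79, adjusted p = 0.084), though it did without PZ replicate 4 (2.18, adjusted p = 0.033). PZ replicates 1 and 2 held by far the least, PZ replicate 4 more than 4 of the 5 HZ libraries, and HZ replicate 3 the most of all. Marrow cells gave few calls, with 1 gene higher and 0 lower in each of the lists of 8 erythroid, 15 B lymphocyte and 14 neutrophil genes tested (limma, at an unadjusted p under 0.05 0, 1 and 0 lower, and 0 in each by limma-voom). The list medians were 1.39, 0.53 and 0.59. Of 16 listed erythroid genes only 8 had values under the listed names, and the globin genes were among those without. Alas2, the heme synthesis enzyme of red cell precursors, was the erythroid call, with 293, 262, 390.4, 311 and 345 in PZ and 1571, 417, 363, 482 and 749 in HZ, which was lost without HZ replicate 1 (0.61, adjusted p = 0.13), HZ replicate 5 or PZ replicate 1 or 2, while 3 erythroid genes were called without HZ replicate 2. The neutrophil call was lost without HZ replicate 1 or 5 or PZ replicate 2. Among B lymphocyte genes 2 were higher without HZ replicate 3 or 5 or PZ replicate 5, and 2 were lower without HZ replicate 5 and 1 without PZ replicate 1 or 2. HZ replicate 1 was the highest library for Alas2, for S100a8 (1475) and for Mpo (6141), genes of neutrophils and their precursors, and for Mki67. Of 14 skeletal muscle genes tested (17 listed), 1 was higher and 3 lower, with sums of 1124 to 18898 in PZ and 1198 to 9930 in HZ, and 6 or 5 were lower without PZ replicate 3 or 4 and 2 were higher without HZ replicate 4 or PZ replicate 5. Of 20 perichondrium, tendon and joint surface genes, 8 were higher and 2 lower, yet their summed level was lower in every HZ library, 19080 to 24118 against 44247 to 54351 in PZ. Fmod, a member whose counts are given above, made up most of every PZ sum, and it alone fell by more than the whole sum. Of 13 resting zone genes (15 listed) 3 were higher and 3 lower, with sums of 1125 to 1729 in HZ and 3353 to 4273 in PZ. Ucma, a member with 2087 to 2999 in PZ and at most 155 in HZ, made up most of every PZ sum, so the lower HZ sums go with that gene. How far RNA of these cells accounts for any zone difference above was not tested.

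**Figure D4:**
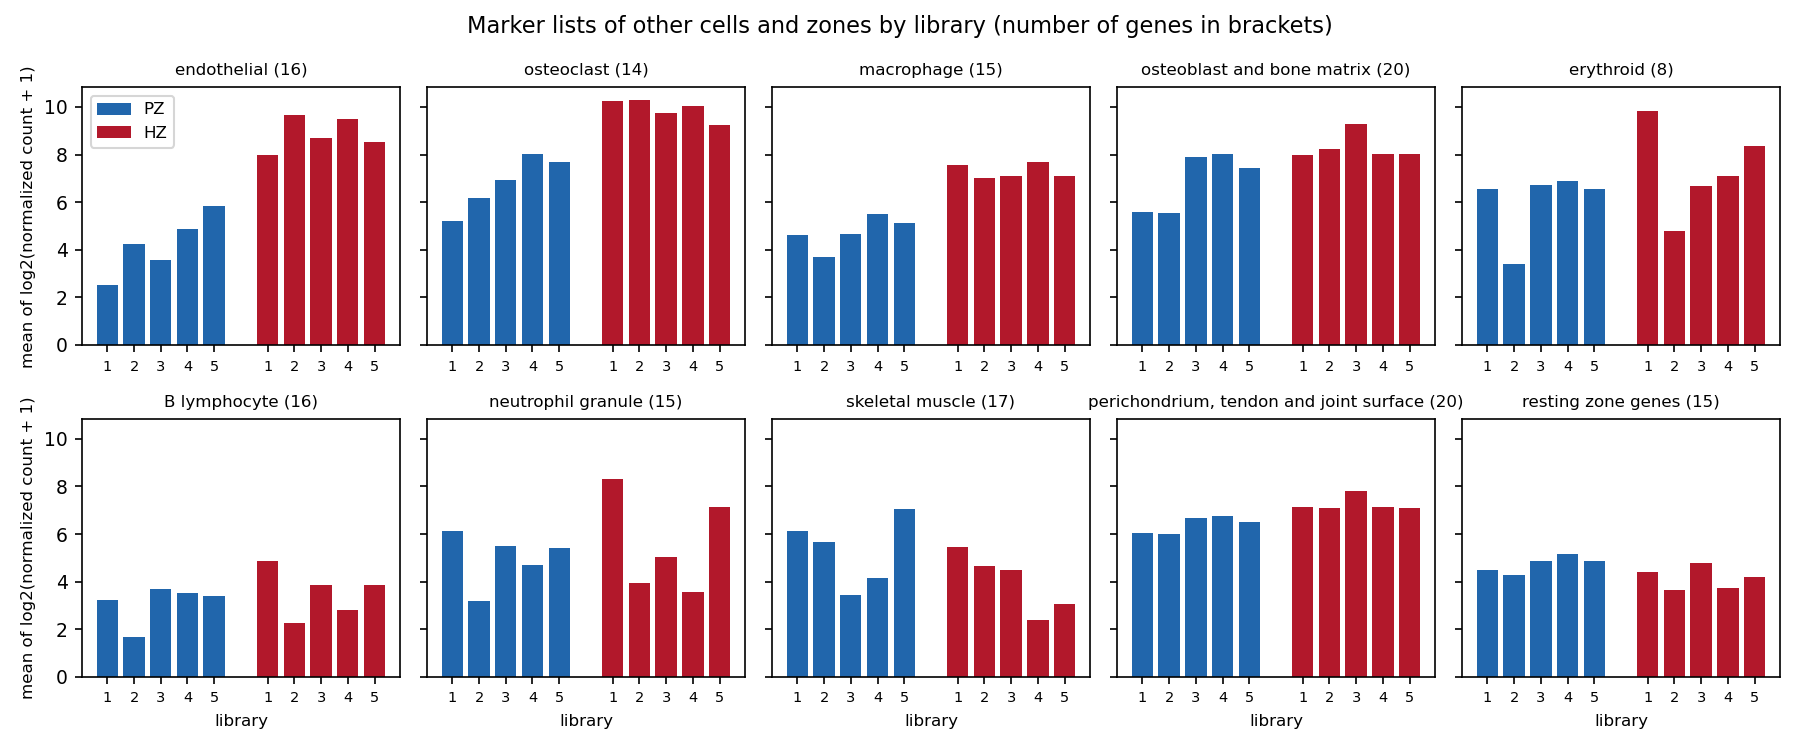
Mean of log2(normalized count + 1) over the genes of 10 marker lists of other cells and zones (bars, 1 per library, number of genes in brackets) in the 5 PZ and 5 HZ libraries. The endothelial, osteoclast, macrophage and perichondrium bars of every HZ library are above those of every PZ library (for perichondrium the summed counts go the other way, through Fmod), whereas the erythroid, neutrophil, B lymphocyte and muscle bars overlap and are highest within HZ in replicate 1.

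The zone difference was compared with that of the 4-week tibia. The difference between the 2 zone differences (1 week minus 4 weeks, an interaction term in the same limma fit) passed the test at more than 2-fold for 193 genes upward and 120 downward, 1.27% and 0.789% of the genes tested. At an adjusted p under 0.05 alone, 1.60% and 0.841% passed. The downward count was 72 to 163 when 1 library was left out, with 77, 72 and 79 without PZ replicate 1, 3 and 4. Alpl had the smallest adjusted p, with zone differences of 3.96 at 1 week and 0.89 at 4 weeks (difference 3.08 ± 0.26, adjusted p = 7.8e-09). Slc13a5, a citrate transporter, had a zone difference of 2.38 at 1 week, and the interaction was of the same size (2.38 ± 0.25, adjusted p = 6.6e-07). Slc13a5 counted 1972, 3439, 1994, 2436 and 2469 in PZ and 16300, 9913, 12910, 10230 and 14400 in HZ at 1 week, with no overlap. Bcl2 turned from -0.99 to 1.21 (difference -2.20 ± 0.26, adjusted p = 5.2e-06). Piezo1, Wnk4 and Pde11a, all higher in HZ at 1 week, were higher by 0.87, 1.94 and 3.69 at 4 weeks, and the interaction was 1.32 ± 0.17, 2.402 ± 0.31 and 3.76 ± 0.54 (adjusted p between 1.8e-05 and 7.9e-05). Npr3 went from 9.07 to 4.07 (interaction adjusted p = 0.0024). The 3 type VI collagen chains, higher in HZ at 1 week, had differences of -0.68, -0.30 and -0.84 at 4 weeks, and the interaction passed the test for each (adjusted p = 0.0056, 0.01 and 0.0033). Car9, lower in HZ by 6.12 at 1 week, had a difference of 0.41 at 4 weeks (difference -6.53 ± 1.26, adjusted p = 0.0025).

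Against the 1-week phalanx, 663 genes had a higher and 505 a lower signed zone difference in the tibia by more than 2-fold (4.36% and 3.32%), and 6.19% and 4.38% passed without a fold minimum. A lower value can also mean a larger fall, as for Shank1, at -4.82 in the tibia and -2.18 in the phalanx (interaction -2.64 ± 0.55, adjusted p = 0.0022). With the libraries rescaled by a trimmed mean the counts of higher and lower genes were 527 and 684, so the higher ones made up 43.5% in place of 56.8% of the calls, and the median of this contrast moved from -0.11 to -0.22. The count of lower differences was 368 to 649 when 1 library was left out. Npr3 had the largest difference of the 10 genes with the smallest adjusted p, with 9.07 in the tibia and -0.08 in the phalanx (difference 9.15 ± 0.99, adjusted p = 1.4e-07). Hivep3, a zinc finger protein that in mice restrains Runx2, was 2.42 in the tibia and -0.21 in the phalanx (difference 2.64 ± 0.23, adjusted p = 3.1e-09). Hivep3 counted 1956, 2418, 2159, 2018 and 1523 in PZ and 11950, 9679, 10400, 10580 and 11030 in HZ in the tibia, an even shift in all libraries. Fgfr1 and Itga5 were higher in HZ of both bones, by 3.50 and 2.90 in the tibia and 1.18 and 0.78 in the phalanx (2.33 ± 0.25 and 2.12 ± 0.23 for the interaction). Slc6a9, a glycine transporter, changed direction, 2.15 in the tibia and -1.21 in the phalanx (difference 3.35 ± 0.35, adjusted p = 1.2e-07). Unc5b, a netrin receptor, Piezo1, Utrn (utrophin), Ccnl2, a cyclin of RNA splicing, and D5Ertd579e, a gene model without a described role, completed these 10, all with the higher signed difference in the tibia.

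By list, 43 of the 74 ribosomal protein genes had a lower zone difference in the tibia than in the phalanx (median -0.85 in the tibia and -0.16 in the phalanx). The same held for 20 of 62 respiratory chain genes, with medians of 0.05 in the tibia and 0.94 in the phalanx. It also held for 13 of 39 genes of the endoplasmic reticulum, with medians of -0.46 and -0.19. Ldha was -1.42 in the tibia and -0.05 in the phalanx (difference -1.37 ± 0.25, adjusted p = 0.00049). Col2a1 and Acan, not called between the tibial zones, were -2.61 and -1.80 in the phalanx (interaction adjusted p = 0.035 and 0.015). Bmp8a, Tgfb3, Inhba and Ltbp3 were all further up in HZ of the tibia, and the interaction passed the test for each (adjusted p between 4.8e-07 and 0.00067). Rn45s held 46.5 to 71.2% of the reads in phalanx HZ and 58.5 to 73.5% in phalanx PZ, 46.9 to 56.4% in 4-week HZ and 31.0 to 37.2% in 4-week PZ, so the zones of the 3 growth plates also differed in this measure, and its part in the interactions was not tested.

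**Figure D5:**
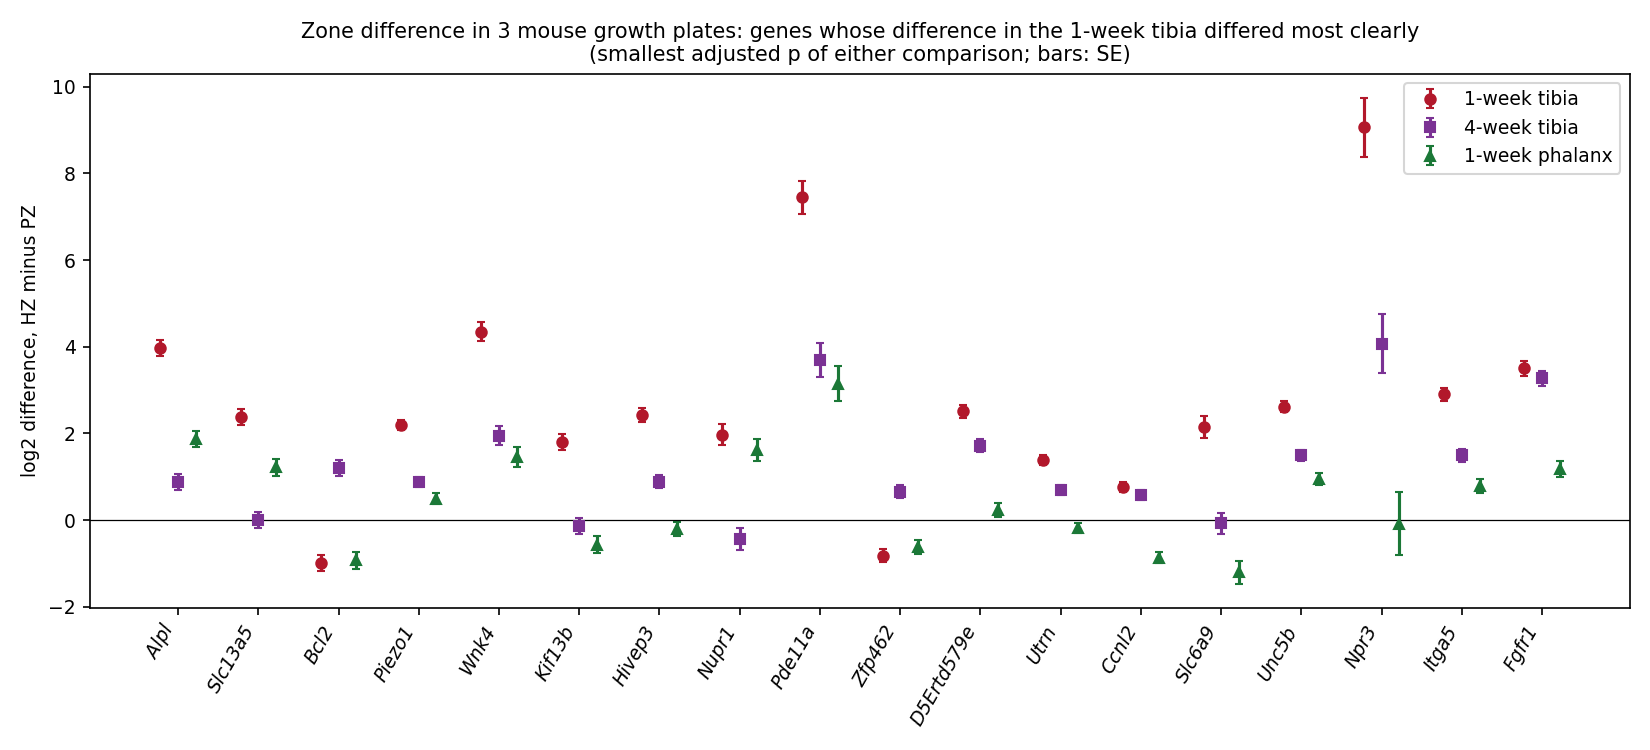
Zone difference (log2 HZ minus PZ, points with 1 SE as bars) in the mouse 1-week tibia, 4-week tibia and 1-week phalanx for the 18 genes with the smallest adjusted p in either interaction. The 1-week tibia has the largest difference for Alpl, Pde11a and Npr3 among others, and Bcl2 and Zfp462 are above 0 in the 4-week tibia and below it in the 2 other growth plates.

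The rat 1-week tibia, fitted on its own, gave 1910 genes higher and 1320 lower in HZ by more than 2-fold of 11732 tested (16.3% and 11.3%). Among 10337 genes tested in both species, 1678 were higher in the mouse and 1695 in the rat, and 964 of them in both, which is 57.4% of the mouse and 56.9% of the rat genes. Lower genes numbered 1620 in the mouse, 1140 in the rat and 548 in both (33.8% and 48.1%). A further 39 genes were higher in the mouse and lower in the rat, and 46 the reverse. Species, table and normalization cannot be told apart in this comparison, and the difference between species was not tested. Values of the 2 species side by side were 5.01 and 5.47 for Mmp13, 3.93 and 3.19 for Bmp2, 7.30 and 6.93 for Aldh1a3, -5.33 and -6.14 for Gdf10, and -3.27 and -4.42 for Gli1. Mki67, not called in the mouse, was -1.09 in the rat (adjusted p = 0.00017). All 37 mitosis genes tested in the rat were lower. Of the genes named for the mouse, Sulf1 was at 4.52 there and at 0.49 in rat HZ (adjusted p = 0.45), Rap1gap was -6.45 and 0.21 (adjusted p = 0.57), Ltbp3 was 2.04 and 0.01 (adjusted p = 0.98), and Panx3, lower in the mouse, was 1.38 in the rat (adjusted p = 8.2e-07).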

How the data were processed

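The study sequenced growth plate zones captured by laser from mouse and rat, and 59 of 60 listed samples with a column of values were analysed here. Per the study's methods, the authors amplified each RNA (Ovation RNA-Seq System V2) before library construction with Nextera XT. The authors mapped paired reads to mm10 with STAR 2.4.2, took gene counts from featureCounts 1.4.6 and scaled these with DESeq2's relative log expression (RLE) method. The deposited log2 values are log2(normalized count + 1). The plan had expected normalized counts, so levels were taken back to counts and tests used the log2 values. The annotation release and strand setting are not given in the sources used here.

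Genes at 10 or more normalized counts in at least 5 of 29 mouse libraries were fitted with limma 3.58.1 in R 4.3.3 (trend, robust, no replicate block, all 6 mouse groups), which left 15212 of 20181 genes after 26 names turned into dates were dropped. A call needed an adjusted p under 0.05 and, where stated, more than 2-fold. Scripts were tested on simulated data. Whole reads recovered from the values (100% of values within 0.05 of a whole number, up to 200 reads) gave the depths and counting intervals. Alternatives were pseudocounts 0.5 and 4, filters, scalings, quality weights, the 10 libraries alone, a replicate block, each library left out, limma-voom and thinned reads (the last 2 chosen after seeing the data).

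Named genes were the 15 largest non-overlapping changes each way with a mean of at least 500, the zone markers, in each list up to 6 members with the smallest adjusted p and its defining members, the 10 smallest adjusted p of each interaction, and Rn45s. The comparison and the 41 gene lists were chosen with earlier results of these data known. P-values measure the spread between libraries, each of which is from 1 animal per the methods. Promoters are from RefSeq GRCm38.p6. Some members of the lists are not reported by name here.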

Additional observations from a re-analysis of the deposited data

Results flagged for a closer look

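In 25 of 440 groups of 5 libraries tested (5.68%), 1 library lay apart from the other 4, where chance alone gives about 1 in 20. Each gap below runs from that library to its nearest neighbour, as a share of the whole range. For genes it was taken on log2(normalized count + 1), though counts are printed, and for Rn45s on the percent of reads. The critical value of Dixon's test for 5 samples is 0.71. No cause was tested for any of them. PZ replicate 1 lay apart for Pthlh (19.4 against 0 to 0, gap 1) and Cdk4 (1073 against 882 to 919, gap 0.79). PZ replicate 2 lay apart for Top2a (1956 against 2384 to 2462, gap 0.86), Disp1 (1865 against 914 to 1016, gap 0.852), Dusp6 (9.92 against 35.4 to 38.9, gap 0.93) and Aurkb (369 against 538 to 589, gap 0.808). PZ replicate 3 lay apart for Alox12 (79.5 against 12 to 16.2, gap 0.844) and Junb (1.83 against 5.98 to 9.02, gap 0.714). PZ replicate 4 lay apart for Creb3l2 (5665 against 7171 to 7522, gap 0.831) and D5Ertd579e (1199 against 1488 to 1541, gap 0.861). PZ replicate 5 lay apart for Igf2 (183100 against 229300 to 241300, gap 0.815), Ghr (668 against 459.8 to 485, gap 0.859), Rpl3 (3528 against 3000 to 3138, gap 0.723) and the Rn45s share (44.7% of reads against 56.2 to 60.2, gap 0.745). HZ replicate 1 lay apart for Mef2a (2355 against 2848 to 3057, gap 0.729), Dusp6 (42.7 against 339.6 to 735, gap 0.727), Prickle1 (48 against 126 to 179.5, gap 0.73) and D5Ertd579e (10970 against 7176 to 8052, gap 0.729). HZ replicate 3 lay apart for Wnk2 (4.59 against 0 to 0, gap 1) and Col1a1 (126000 against 43180 to 55250, gap 0.77). HZ replicate 4 lay apart for Nkx3-2 (18.9 against 0 to 1.3, gap 0.721). HZ replicate 5 lay apart for Col10a1 (416300 against 112500 to 149600, gap 0.782), Hif1a (2616 against 1580 to 1794, gap 0.748), Ccnl2 (4001 against 5516 to 6032, gap 0.782) and Unc5b (13170 against 8267 to 9381, gap 0.729).

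The zone difference of 10 genes with the smallest adjusted p differed between the 1-week and the 4-week tibia by the interaction term of the limma fit. The log2 values, 1 week minus 4 weeks with SE, were Alpl 3.08 ± 0.26 (adjusted p = 7.8e-09), Slc13a5 2.38 ± 0.25 (adjusted p = 6.6e-07), Bcl2 -2.20 ± 0.26 (adjusted p = 5.2e-06), Piezo1 1.32 ± 0.17 (adjusted p = 1.8e-05), Wnk4 2.4 ± 0.31 (adjusted p = 2.3e-05), Kif13b 1.94 ± 0.26 (adjusted p = 2.3e-05), Hivep3 1.54 ± 0.22 (adjusted p = 7.9e-05), Nupr1 2.41 ± 0.35 (adjusted p = 7.9e-05), Pde11a 3.76 ± 0.54 (adjusted p = 7.9e-05), Zfp462 -1.48 ± 0.21 (adjusted p = 7.9e-05). Alpl, Slc13a5, Piezo1, Wnk4, Kif13b, Hivep3, Nupr1 and Pde11a had the larger HZ excess at 1 week, and Bcl2 and Zfp462 were lower in HZ at 1 week and higher at 4 weeks.

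Between the 1-week tibia and the 1-week phalanx the corresponding values, tibia minus phalanx, were Hivep3 2.64 ± 0.23 (adjusted p = 3.1e-09), D5Ertd579e 2.27 ± 0.22 (adjusted p = 4e-08), Utrn 1.57 ± 0.16 (adjusted p = 4e-08), Piezo1 1.70 ± 0.17 (adjusted p = 7.2e-08), Ccnl2 1.63 ± 0.17 (adjusted p = 7.2e-08), Slc6a9 3.35 ± 0.35 (adjusted p = 1.2e-07), Unc5b 1.67 ± 0.18 (adjusted p = 1.4e-07), Npr3 9.15 ± 0.99 (adjusted p = 1.4e-07), Itga5 2.12 ± 0.23 (adjusted p = 1.5e-07), Fgfr1 2.33 ± 0.25 (adjusted p = 2.3e-07). All 10 genes had the larger HZ excess in the tibia, and Piezo1 and Hivep3 were among the 10 in both comparisons.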

How the results depend on the processing

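Up to 22 settings were run for each of 239 gene results (20 for the interactions, 21 for Pthlh), 10 of them leaving out 1 library each. Of these results, 219 kept their direction and their side of the threshold, 10 lost the call in at least 1 setting (Fgfr3, Comp, Panx3, Smpd3, Enpp1, Sp7, Cdkn1c, Hif1a, Itga10 and Alas2) and 5 gained it (Col2a1, Mki67, Igf1, Col1a1 and Acta1). The sign turned for 5 that were not called in any setting, namely Acan (-0.050 with trimmed mean scaling, and -0.133 to 0.147 with 1 library left out, below 0 without HZ replicate 1 or 5 or PZ replicate 3 or 4), Pthlh (0.126 by limma-voom), Npr2 (-0.191 to 7e-04 with 1 library left out, above 0 without PZ replicate 1), Mpo (-0.176 to 1.43, below 0 without HZ replicate 1) and Sparc (0.229 after quantile normalization). With 1 library left out, 2098 to 2293 genes were higher and 2415 to 2764 lower in HZ, 151 to 213 and 72 to 163 differed upward and downward from the 4-week tibia (77, 72 and 79 downward without PZ replicate 1, 3 and 4), 595 to 692 and 368 to 649 from the phalanx, and the Rn45s difference was 17.5 to 22.7 percentage points. The cause of the wider ranges was not tested. By limma-voom 341 genes had a lower signed zone difference in the tibia than in the phalanx in place of 505. With the replicate number as a block, the Rn45s difference of 20.239 points had an exact sign-flip p of 0.0625, the smallest 5 pairs allow. The correlation of same-numbered deviations was 0.097, 0.044, 0.028, 0.034 and 0.111. The numbers share no given animal and the study's methods name no block, so the block was not used in the main fit. With it the 10 libraries alone gave 2029 genes higher and 2151 lower (2022 and 2102 without it), and all groups 2250 and 2683. With the block, Panx3 and Smpd3 lost the call (adjusted p = 0.093 and 0.065) and Col2a1 and Acta1 gained it (0.025 and 0.035) in the 10 libraries alone, and Igf1 and Col1a1 gained it in all groups (0.014 and 0.028). In all, 4 of 5 HZ libraries were most like the PZ library of their own number, a hint from the data and not from the design. Depth outside Rn45s, down to 5240960 reads in HZ, limits genes with few reads there.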
